A study of Mus musculus with 32 samples.

Results

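The Obox genes are a family of homeobox genes named for the oocyte. The rule took every gene whose name begins with Obox and a digit in both deposited expression tables, and found 48 of 46078 entries. Of these, 7 were protein-coding genes (Obox1, Obox2, Obox5, Obox7, Obox3, Obox6 and Obox8) and 41 carried a pseudogene name (8 Obox3-ps, 32 Obox4-ps and 1 Obox6-ps entries). No values chose the members, and the 7 coding genes are described in full.

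A homeobox encodes a homeodomain, the DNA-binding fold of many developmental transcription factors. Obox genes form a rodent gene cluster whose RNAs are found mainly in oocytes and preimplantation embryos. Some are transcribed in the growing oocyte and stored in the egg as maternal RNA, others are switched on from the embryo's own genome, and OBOX proteins are known as activators of the zygotic genome. Dppa2 and Dppa4, the genes mutated here, encode chromatin factors that regulate genes of the 2-cell stage in embryonic stem cells.

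Bulk RNA-seq was made from mouse embryos late in the 1-cell stage (12 hours post fertilization) and late in the 2-cell stage (28 hours). In the genotype names m is the maternal and z the zygotic allele, with + for intact and - for mutant. Total RNA was measured in 8 groups of 2 libraries: Dppa2 m+z+ and m-z+ embryos of a mixed B6/DBA background and Dppa4 m+z+ and m-z+ embryos of the B6 background, each at both stages. PolyA RNA was measured in 16 libraries described as single embryos: WT 1-cell and 2-cell (B6, 2 libraries each), and 2-cell Dppa2 m-z+ and m-z- (B6/DBA mixed) and Dppa4 m-z+ and m-z- (B6), with 3 libraries each. The part of each gene that the mutant alleles lack, and the number of embryos in a total RNA library, are not stated in the labels used here. Nothing says that replicates came from separate parents or cultures, so p-values measure only how these libraries spread, and that spread may be technical. The Dppa2 groups had no polyA control of their own background, so genotype and background cannot be told apart where they are set against WT.

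Levels are FPKM, fragments per length of transcript and per depth of the library, which puts genes of different length on 1 scale. The FPKM of a library summed to 412115 to 629583 (total RNA) or 539978 to 675241 (polyA), with 10706 to 13071 and 10842 to 13916 genes at 1 FPKM or above. The read depth is unknown. Dppa2 was at 9.38 and 9.52 FPKM in Dppa2 m-z+ 1-cell embryos against 32.3 and 32.7 in their m+z+ controls, and Dppa4 was at 1.13 and 0 in Dppa4 m-z+ 1-cell embryos against 4.37 and 6.92. Dppa4 was at 0, 0 and 0.149 FPKM in Dppa4 m-z-, whereas Dppa2 was at 155, 130 and 76.5 FPKM in libraries that carry the label Dppa2 m-z-, overlapping the 92.4, 87.4 and 63.3 of Dppa2 m-z+. No genotype can therefore be read from Dppa2 RNA in the libraries labelled Dppa2 m-z-. Of 10 oocyte and zygote markers (zona pellucida genes, Gdf9, Mos and others) and 10 late 2-cell markers, all were found at 1 FPKM or more in some library of each table. The summed level of the 14 cumulus and granulosa markers stayed at or below 11.4 FPKM in total RNA. In 2-cell polyA it was 46.5 to 49.9 in the libraries labelled Dppa2 m-z- and 19.0 to 33.7 in the others. Of these 14 markers, 10 stayed below 1 FPKM in every total RNA library and 8 in every polyA library. The rest reached 1 FPKM or more in some library, among them Amhr2, Cyp19a1 and Tnfaip6 in both kinds of RNA. The sum of the 9 sperm markers was 4.46 to 15 FPKM in 1-cell and 0.289 to 3.86 in 2-cell total RNA, and at most 18.8 in polyA. The sum of 7 blood markers was at most 0.184 FPKM in any 1-cell library, 4.58 to 14.8 in 2-cell total RNA and 16.8 to 148 in 2-cell polyA, apart from 1584 in the library labelled Dppa2 m-z- replicate 3.

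In the GENCODE M21 annotation of GRCm38 (mm10), 46 of the 48 entries lay on chromosome 7 within 1508 kb, and Obox3-ps8 and Obox6-ps1 lay on chromosome 17. The 4 genes abundant at the 1-cell stage, called maternal below, were on the plus strand: Obox7 (chr7:14659496-14665996), Obox2 (chr7:15388721-15398545), Obox1 (chr7:15388948-15556866) and Obox5 (chr7:15750131-15759800). The 3 genes near 0 at the 1-cell stage, called zygotic below, were on the minus strand: Obox8 (chr7:14331436-14333557), Obox3 (chr7:15479825-15639902) and Obox6 (chr7:15833241-15839678). The Obox1 model overlaps that of Obox2 and, on the other strand, that of Obox3. Obox3-ps6 lies within both the Obox1 and the Obox3 model. Overlapping models and near-identical copies matter here because a read that fits several of them has to be split between them.

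RefSeq (GRCm38.p6) promoters were given for 5 of the 7 coding genes, and not for Obox6 and Obox8. The 250 bases before the start site are shown for 3 maternal genes and for Obox3, because those genes move in opposite directions between the stages and yet share a stretch of promoter. They lie at chr7:15547007-15547256 on the plus strand (Obox1), chr7:15750120-15750369 on the plus strand (Obox5), chr7:14659458-14659707 on the plus strand (Obox7) and chr7:15639778-15640027 on the minus strand (Obox3). Each runs 5′ to 3′ along the gene's own strand, and capitals mark the run of 25 bases that all of them hold.
Obox1: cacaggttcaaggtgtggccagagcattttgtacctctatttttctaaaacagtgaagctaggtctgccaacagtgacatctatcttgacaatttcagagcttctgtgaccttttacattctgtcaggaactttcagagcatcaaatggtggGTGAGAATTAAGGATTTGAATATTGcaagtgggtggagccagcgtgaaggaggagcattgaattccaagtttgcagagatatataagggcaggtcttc
Obox5: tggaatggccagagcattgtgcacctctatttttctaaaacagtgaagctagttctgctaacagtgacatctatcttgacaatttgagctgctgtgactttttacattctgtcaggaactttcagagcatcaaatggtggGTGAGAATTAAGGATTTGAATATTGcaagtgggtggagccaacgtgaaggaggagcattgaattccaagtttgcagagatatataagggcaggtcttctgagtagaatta
Obox7: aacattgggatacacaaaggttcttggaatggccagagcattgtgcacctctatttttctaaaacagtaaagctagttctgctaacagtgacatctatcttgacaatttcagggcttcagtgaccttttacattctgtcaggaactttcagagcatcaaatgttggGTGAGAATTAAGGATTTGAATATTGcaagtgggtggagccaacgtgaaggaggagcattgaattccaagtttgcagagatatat
Obox3: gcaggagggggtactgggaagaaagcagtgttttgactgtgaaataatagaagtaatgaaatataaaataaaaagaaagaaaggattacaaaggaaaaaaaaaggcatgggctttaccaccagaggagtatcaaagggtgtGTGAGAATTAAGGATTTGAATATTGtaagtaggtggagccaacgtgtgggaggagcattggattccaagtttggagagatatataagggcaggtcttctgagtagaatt

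The shared run GTGAGAATTAAGGATTTGAATATTG began 98 bases before the start site in Obox1, 110 in Obox5, 84 in Obox7 and 109 in Obox3. It was looked for after the sequences had been seen, on the strand of the gene, as a run that all 4 promoters hold. Counted on both strands, 4 of 32851 promoters of the same length held it (0.0122%), all of them shown above. These 4 matches were fixed by how the run was chosen, so the share is a description only. In Obox2 it crossed the RefSeq start site and was therefore outside the window. All start sites here are those of RefSeq, and the GENCODE M21 models differ. In GENCODE, Obox1 begins at chr7:15388948, Obox5 at chr7:15750131, Obox7 at chr7:14659496 and Obox3, on the minus strand, at chr7:15639902. The run therefore lies inside the GENCODE model of each of these genes. Whether it is promoter or transcribed sequence was not tested. The promoters of the maternal genes were close copies of each other: over aligned bases, Obox1 and Obox2 were 100% identical (153 bases), Obox5 and Obox7 97.3%, Obox1 and Obox5 95.8%, and Obox1 and Obox7 94.1%. Obox3 stood further off, with 75.7% identity to Obox5, 73.1% to Obox7, 69.7% to Obox1 and 61.1% to Obox2. Of 3 motifs searched on both strands, TATAAA (letters of the TATA box) and TAATCC (letters of sites bound by Otx and Crx homeodomains) each matched once, in Obox3. They spanned positions -189 to -184 and, on the reverse strand, -168 to -163. TAATTG, the core of Nobox sites, was in none of the 5 promoters. These motifs were in 12.4%, 6.25% and 7.17% of all 32851 promoters, and a match is a description of letters only. Only exact letters were searched. Near matches such as TATATAAG, which the Obox1, Obox5 and Obox3 sequences above hold, were not counted, so the lack of a match does not show that a promoter has no TATA box.

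The coding sequences showed the same kinship. Obox1 and Obox2 were 98.5% identical over their aligned coding bases, and the lowest identity among Obox1, Obox2, Obox5 and Obox7 was 92.9%. Obox3 was 93.1% to 94.0% identical to those 4 genes, although its RNA appeared at the other stage. Obox6 was 76.6% to 80.1% identical to the genes above, and Obox8 57.1% to 59.9% identical to the other 6. Of all 100-base windows of the annotated transcripts, 42.3% in Obox1 and 47.2% in Obox2 occurred word for word in another coding Obox gene, against 1.75% in Obox5, 2.34% in Obox7 and 0% in Obox3, Obox6 and Obox8. With 50-base windows this share ran from 17.1% in Obox5 to 64.4% in Obox2 among the maternal genes. It was 1.64% in Obox3 and 0% in Obox6 and Obox8. The split of reads among the maternal genes, above all between Obox1 and Obox2, is therefore uncertain. The 100-base windows of Obox6 were found in no other gene, but 5.02% of its 50-base windows occurred in an Obox pseudogene. Those of Obox8 were found in no other gene at either length.

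At the 1-cell stage Obox1, a maternal member, was among the most abundant RNAs listed. Its level was 656 and 662 FPKM in Dppa2 m+z+, 697 and 652 in Dppa2 m-z+, 580.4 and 581 in Dppa4 m+z+, and 587 and 579.6 in Dppa4 m-z+, at ranks 41 to 47 of all genes in a library. At the 2-cell stage it was at 60.0 and 55.1 FPKM in Dppa2 m+z+, 103 and 69.3 in Dppa2 m-z+, 91.7 and 228 in Dppa4 m+z+, and 132 and 124 in Dppa4 m-z+. Every 2-cell library was below every 1-cell library, and 1 library, Dppa4 m+z+ replicate 2, was the highest at the 2-cell stage.

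Obox1 fell between the stages in each genotype (limma, adjusted p of 0.000149 or less). The change was -3.50 ± 0.30 (SE) in Dppa2 m+z+, -2.98 ± 0.30 in Dppa2 m-z+, -2.0 ± 0.30 in Dppa4 m+z+ and -2.18 ± 0.30 in Dppa4 m-z+. All changes here are differences of log2(FPKM + 1), a scale on which changes of low genes are understated. In bulk samples, fewer cells with a transcript and less of it per cell cannot be told apart.

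Obox2, nearly identical to Obox1, behaved alike but fell further. It was at 531 and 729.6 FPKM in Dppa2 m+z+ 1-cell embryos, 498 and 568 in Dppa2 m-z+, 392 and 380.4 in Dppa4 m+z+, and 337 and 331 in Dppa4 m-z+. At the 2-cell stage the 8 libraries ranged from 31.6 to 58.5 FPKM, below every 1-cell library. The changes were -4.09 ± 0.24 (SE) in Dppa2 m+z+, -3.30 ± 0.24 in Dppa2 m-z+, -3.10 ± 0.24 in Dppa4 m+z+ and -3.13 ± 0.24 in Dppa4 m-z+ (limma, adjusted p of 6.01e-07 or less).

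Obox5 was the maternal member with the smallest change between the stages in each genotype. It started level in all genotypes, at 530.1 and 562 FPKM in Dppa2 m+z+, 531 and 511 in Dppa2 m-z+, 533 and 549 in Dppa4 m+z+, and 546 and 513 in Dppa4 m-z+. In 2-cell embryos it was at 123 and 123 FPKM in Dppa2 m+z+, 276 and 149 in Dppa2 m-z+, 247 and 611 in Dppa4 m+z+, and 348 and 361 in Dppa4 m-z+. In Dppa4 m+z+ the stages overlapped, since the 611 FPKM of replicate 2 was above both 1-cell libraries, and in the other 3 genotypes they did not.

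Obox5 fell in Dppa2 m+z+ by 2.14 ± 0.33 (SE, adjusted p = 0.000109, limma) and in Dppa2 m-z+ by 1.36 ± 0.33 (adjusted p = 0.00334), both on the log2 scale. In the Dppa4 groups the difference did not pass, at -0.48 in m+z+ (limma, adjusted p = 0.246) and -0.58 in m-z+ (adjusted p = 0.159). The Dppa4 m+z+ value rested on 1 library: it was -1.13 without 2-cell replicate 2 (limma, adjusted p = 0.00353) and 0.17 without 2-cell replicate 1 (adjusted p = 0.631). The Dppa4 m-z+ value passed when only the compared groups were fitted (limma, adjusted p = 0.00834) and when libraries were scaled to a common FPKM sum (-0.94, adjusted p = 0.0497).

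Obox7 was the least abundant maternal member in every group. In 1-cell embryos it was at 74.3 and 75.8 FPKM in Dppa2 m+z+, 83.0 and 75.4 in Dppa2 m-z+, 66.7 and 61.8 in Dppa4 m+z+, and 68.6 and 62.0 in Dppa4 m-z+. In 2-cell embryos the values were 11.3 and 3.81 FPKM in Dppa2 m+z+, 20.3 and 14 in Dppa2 m-z+, 9.44 and 28.2 in Dppa4 m+z+, and 15.8 and 12.8 in Dppa4 m-z+. It fell in all 4 genotypes, with changes of -3.30 ± 0.44 (SE), -2.17 ± 0.44, -1.90 ± 0.44 and -2.12 ± 0.44 in the same order and no overlap of the stages (limma, adjusted p of 0.00311 or less).

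**Figure D1:**
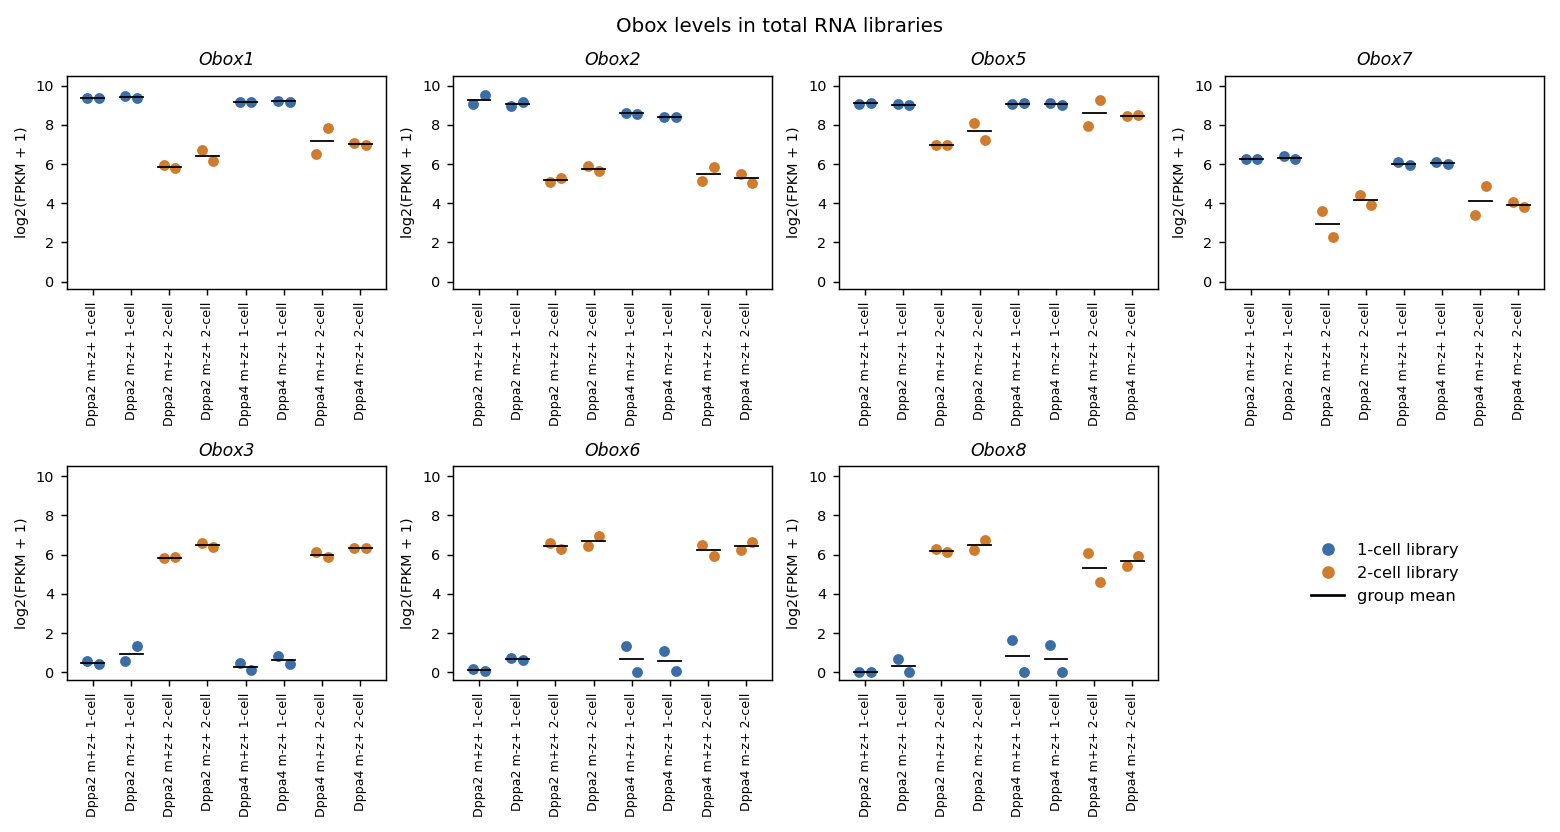
Levels of the 7 coding Obox genes in total RNA, as log2(FPKM + 1), by genotype and stage; each point is a library, the lines are group means, blue is 1-cell and orange 2-cell. Obox1, Obox2, Obox5 and Obox7 are high at the 1-cell stage, and Obox3, Obox6 and Obox8 lie near 0 there and reach 23.3 to 121 FPKM at the 2-cell stage.

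Obox3, the zygotic member closest in sequence to the maternal genes, was nearly undetected at the 1-cell stage. It was at 0.472 and 0.346 FPKM in Dppa2 m+z+, 0.489 and 1.5 in Dppa2 m-z+, 0.385 and 0.0650 in Dppa4 m+z+, and 0.760 and 0.324 in Dppa4 m-z+. In 2-cell embryos it was at 54.9 and 57.2 FPKM in Dppa2 m+z+, 96.1 and 81.8 in Dppa2 m-z+, 68.2 and 58.8 in Dppa4 m+z+, and 79.4 and 78.8 in Dppa4 m-z+. Obox3 rose by 5.34 ± 0.26 (SE), 5.54 ± 0.26, 5.73 ± 0.26 and 5.71 ± 0.26 on the log2 scale in the same order, with no overlap (limma, adjusted p of 1.94e-08 or less).

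Obox6, the gene at the distal end of the cluster, had the highest mean of the 3 zygotic members in each total RNA 2-cell group. Its 1-cell values were 0.112 and 0.0614 FPKM in Dppa2 m+z+, 0.649 and 0.565 in Dppa2 m-z+, 1.56 and 0 in Dppa4 m+z+, and 1.16 and 0.0642 in Dppa4 m-z+. Its 2-cell values were 94.2 and 77.1 FPKM in Dppa2 m+z+, 86.4 and 121 in Dppa2 m-z+, 90.5 and 59.2 in Dppa4 m+z+, and 73.7 and 101 in Dppa4 m-z+. Obox6 rose by 6.31 ± 0.42 (SE), 6.01 ± 0.42, 5.53 ± 0.42 and 5.85 ± 0.42 on the log2 scale in that order (limma, adjusted p of 5.7e-07 or less).

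Obox8, the most divergent member, was listed at 0 in 5 of the 8 total RNA 1-cell libraries, and 1-cell values above 0 came from replicate 1 of 3 groups. These were 0.598 FPKM in Dppa2 m-z+, 2.13 in Dppa4 m+z+ and 1.63 in Dppa4 m-z+, where the other replicate was listed at 0. At the 2-cell stage it was at 77.0 and 68.8 FPKM in Dppa2 m+z+, 73.6 and 108 in Dppa2 m-z+, 66.2 and 23.3 in Dppa4 m+z+, and 42.0 and 60.4 in Dppa4 m-z+. Obox8 rose in all 4 genotypes without overlap: by 6.16 ± 0.58 (SE) in Dppa2 m-z+, 4.51 ± 0.58 in Dppa4 m+z+ and 4.98 ± 0.58 in Dppa4 m-z+ on the log2 scale, and from libraries listed at 0 in Dppa2 m+z+ (limma, adjusted p of 4.21e-05 or less).

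Between the stages, then, all 7 coding members passed the test in both Dppa2 genotypes, with 3 that rose and 4 that fell, and 6 of 7 in both Dppa4 genotypes. Change between these stages was common: limma called 61.6% of 15068 tested genes in Dppa2 m+z+ (31.7% rose, 29.9% fell), 57.3% in Dppa2 m-z+ (28.8% and 28.4%), 49.1% in Dppa4 m+z+ (24.9% and 24.2%) and 50.3% in Dppa4 m-z+ (25.3% and 25%). A call by itself therefore does not set a member apart. The share of all genes whose libraries did not overlap between the stages was not counted, in total RNA or in polyA below. Lack of overlap between the stages does not set a member apart either. With each library scaled to a common FPKM sum, the share of calls that rose went from 51.5% to 39.3% in Dppa2 m+z+, 50.7% to 39.0% in Dppa4 m+z+ and 50.3% to 38.5% in Dppa4 m-z+, with shifts of -0.36, -0.28 and -0.28 in the all-gene median. In Dppa2 m-z+ the shift was -0.20. Every member kept its direction under this scaling and its call, except Obox5 in Dppa4 m-z+ as given above. The summed oocyte and zygote markers moved with the maternal members, from 1621 to 2322 FPKM in 1-cell libraries to 351 to 760.4 in 2-cell libraries of total RNA. The late 2-cell markers moved with the zygotic members, from 5.91 to 19.8 FPKM to 278 to 432. The low sums of blood and sperm markers given above moved with stage as well. The part of these markers and of stage-wide change in the members' values was not tested.

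**Figure D2:**
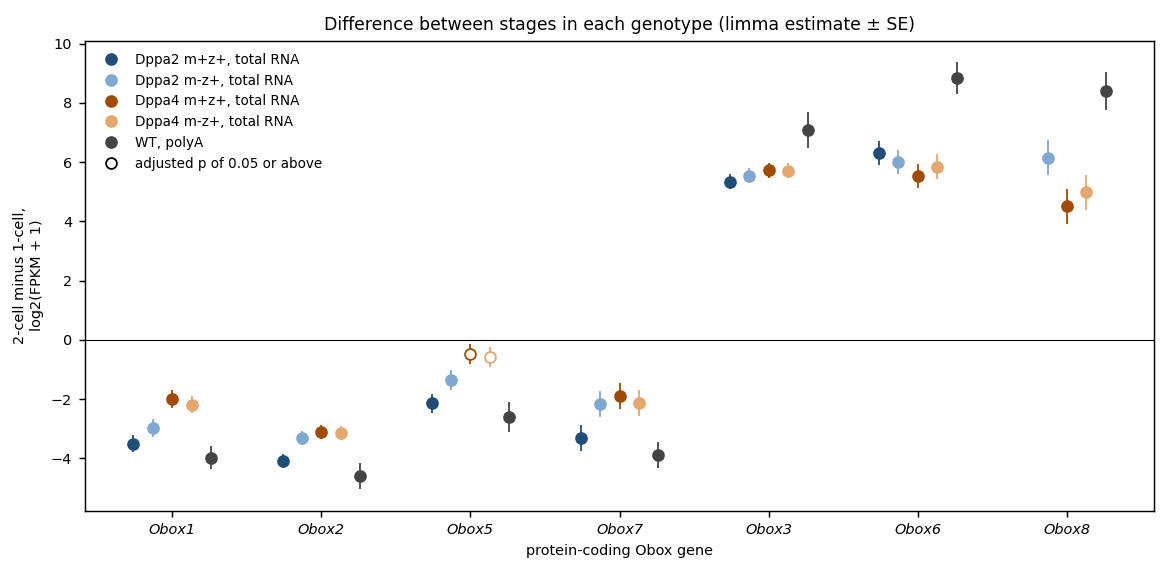
Difference between the 2-cell and 1-cell stage for each coding Obox gene, in log2(FPKM + 1), as the limma estimate with its SE; colours are genotypes, and open points did not pass an adjusted p of 0.05. No point is drawn for Obox8 in Dppa2 m+z+, which was listed at 0 at the 1-cell stage; Obox5 in the Dppa4 groups has the open points, at -0.48 and -0.58.

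PolyA RNA of WT embryos showed the same 4 members high at the 1-cell stage. Obox5 was at 3087 and 2793 FPKM, Obox1 at 2925 and 2867, Obox2 at 1946 and 2345, and Obox7 at 629.8 and 537. Obox1 held ranks 22 and 18 and Obox5 rank 19 in both of these libraries. At the 2-cell stage Obox5 was at 371 and 624 FPKM, Obox1 at 187 and 181, Obox2 at 96.2 and 79.3, and Obox7 at 44.6 and 32.5, so that no gene's stages overlapped.

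The 3 zygotic members were near 0 in WT 1-cell polyA RNA and at ranks 90 to 273 of all genes at the 2-cell stage. Obox3 was at 1.25 and 2.32 FPKM in 1-cell and 319 and 431 in 2-cell embryos. Obox6 went from 1.36 and 0 to 719.6 and 682 FPKM, and Obox8 from 1.07 and 0 to 537 and 438. All 7 coding members passed the test, beside 25.9% of 18506 genes called by limma in that comparison (17.4% rose, 8.42% fell). Scaling by median ratios moved the median of all genes by -0.21 and the share of calls that rose from 67.4% to 54.4%, and left all 7 calls and directions in place.

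In polyA the changes of log2(FPKM + 1) were -3.97 ± 0.39 (SE) for Obox1, -4.60 ± 0.44 for Obox2, -2.61 ± 0.51 for Obox5 and -3.90 ± 0.44 for Obox7. They were 7.09 ± 0.62 for Obox3, 8.83 ± 0.55 for Obox6 and 8.40 ± 0.63 for Obox8 (limma, adjusted p of 0.00102 or less for all 7). Obox5 again had the smallest change of the maternal members. The polyA and total RNA tables were normalised separately, so their levels are not compared by a test.

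**Figure D3:**
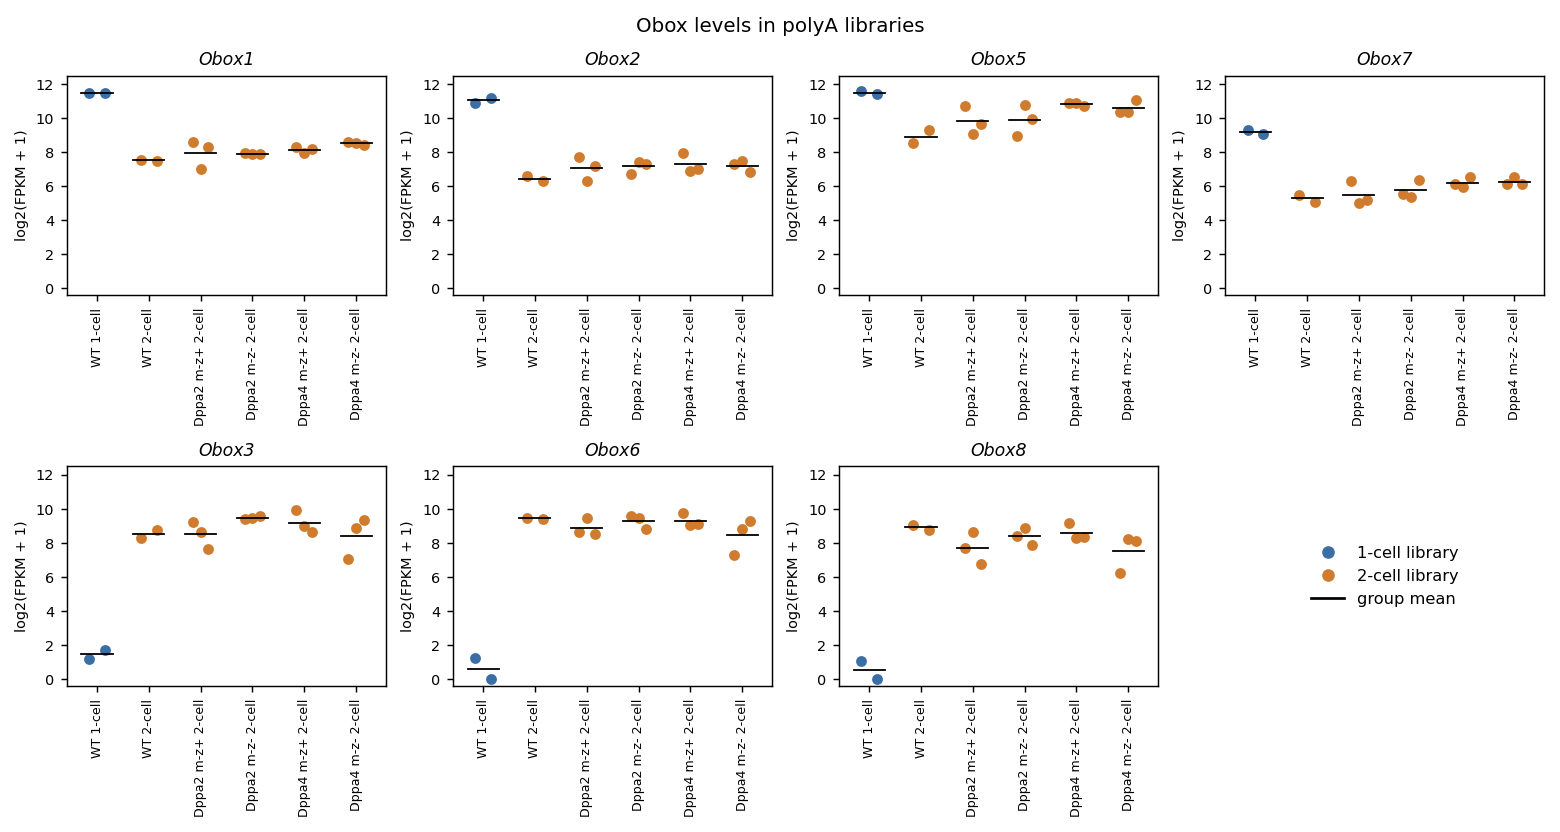
Levels of the 7 coding Obox genes in polyA libraries, as log2(FPKM + 1), by group; each point is a library, the lines are group means, blue is 1-cell and orange 2-cell. The 1-cell WT libraries are above all 2-cell libraries for Obox1, Obox2, Obox5 and Obox7, and below all of them for Obox3, Obox6 and Obox8.

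The family as a whole lost weight between the stages while its make-up turned over. The 7 coding genes held 0.361% to 0.465% of all FPKM in total RNA 1-cell libraries and 0.0673% to 0.209% in 2-cell libraries. In WT polyA the shares were 1.57% and 1.58% in 1-cell embryos, then 0.364% and 0.379% in 2-cell embryos. Obox3, Obox6 and Obox8 together were at most 0.259% of the coding Obox total in any 1-cell library of either table, and 13.3% to 52.6% of it in total RNA and 15.6% to 69.3% in polyA 2-cell libraries. The lowest of these shares belonged to Dppa4 m+z+ replicate 2 in total RNA and Dppa4 m-z- replicate 1 in polyA.

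The order of levels changed accordingly. In Dppa2 m+z+ 1-cell embryos the means ran from Obox1 (659 FPKM) over Obox2 (630.4) and Obox5 (546) to Obox7 (75.1). Obox1, Obox2 and Obox5 overlapped their neighbours in that order. In Dppa4 m+z+ 1-cell embryos the order was Obox1, Obox5, Obox2 and Obox7, with no overlap between neighbours. Obox5 led in all 4 total RNA 2-cell groups, without overlapping the next gene, Obox6 in the Dppa2 groups and Obox1 in the Dppa4 groups. In WT 2-cell polyA Obox6 led (701 ± 26.5 FPKM, SD, n = 2), above Obox5 (498 ± 179) and Obox8 (487 ± 70.0), which overlapped. In the 4 mutant polyA groups Obox5 had the highest mean and Obox7 the lowest. Obox5 did not overlap the next gene in the Dppa4 groups, but other genes overlapped it in both Dppa2 groups: Obox6 was at 704 FPKM against 542 of Obox5 in Dppa2 m-z+ replicate 2, and at 771 against 499 in the library labelled Dppa2 m-z- replicate 1.

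**Figure D4:**
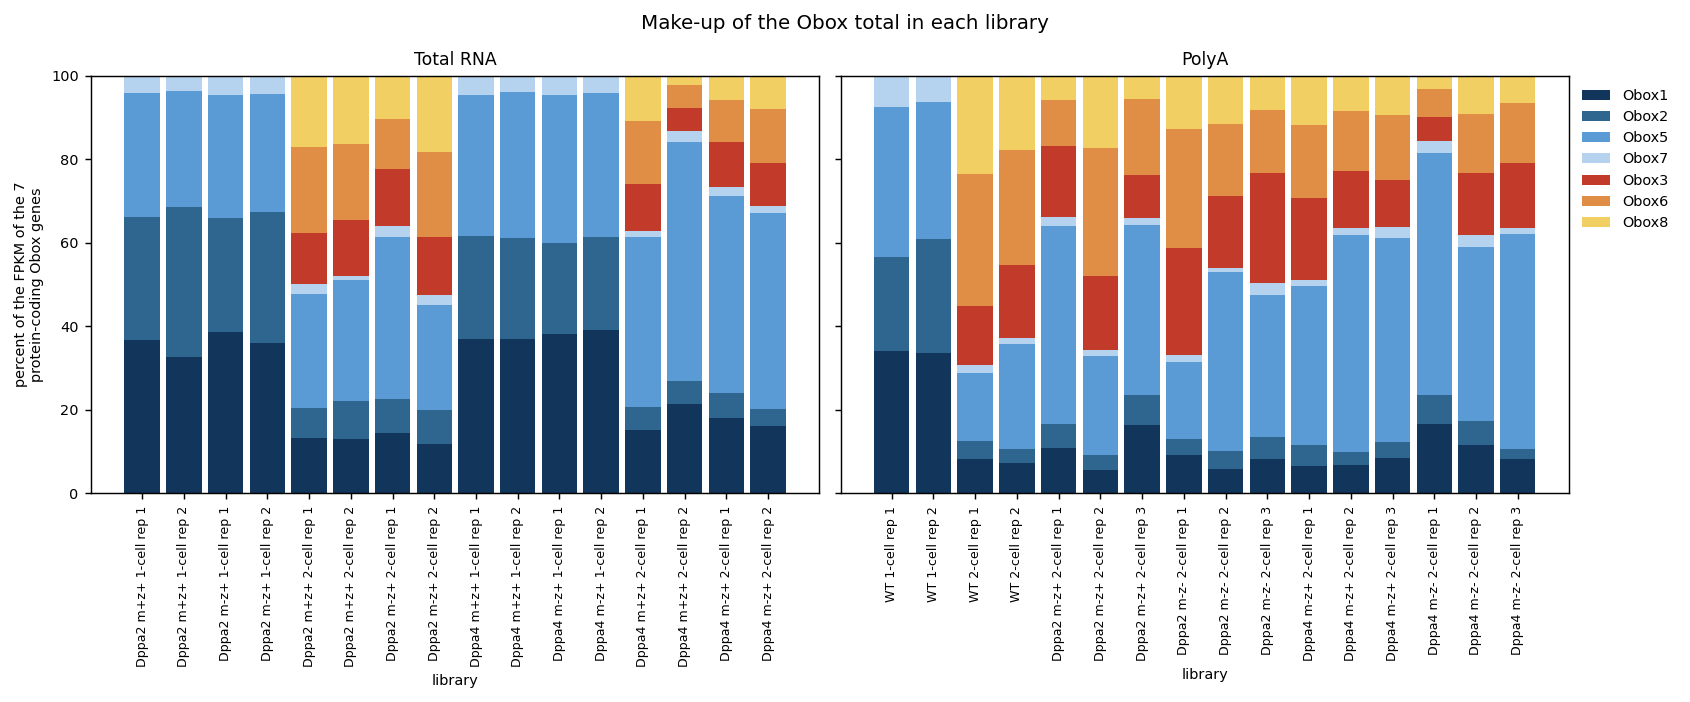
Share of each coding Obox gene in the summed FPKM of the 7 genes, in percent, with 1 bar per library; total RNA is on the left and polyA on the right. Blue shades (Obox1, Obox2, Obox5, Obox7) fill the 1-cell bars, and the warm shades (Obox3, Obox6, Obox8) reach between 13.3% and 69.3% of the 2-cell bars.

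The pseudogene-named entries were near 0 at the 1-cell stage. Their summed level was 2.27 to 8.71 FPKM in total RNA 1-cell libraries and 239.6 to 340.1 in 2-cell libraries, and in polyA 22.1 and 25.4 against 309.6 to 2253. Obox3-ps1 to Obox3-ps7 and Obox4-ps35 together held 97.4% to 99.4% of this sum in total RNA and 95.6% to 99.6% in polyA 2-cell libraries, and 15.8% to 67.6% of the low sum in total RNA 1-cell libraries. In total RNA 2-cell libraries Obox4-ps35 had the highest median, 61.1 FPKM (range 51.4 to 69.0), followed by Obox3-ps5 at 56.4 (47.0 to 66.7). In polyA 2-cell libraries Obox3-ps5 had the highest, 328 FPKM.

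Obox4-ps35, annotated as a long noncoding RNA, was at 61.1 and 57.3 FPKM in Dppa2 m+z+ 2-cell embryos and listed at 0 in both of their 1-cell libraries. In WT polyA Obox4-ps35 was at 0.943 and 0.777 FPKM in 1-cell and 80.6 and 205 in 2-cell embryos. The other 31 Obox4-ps entries did not exceed 3.79 FPKM in total RNA or 6.04 in polyA, 5 were at 0 in every library of total RNA, 5 in every library of polyA, and 4 in every library of both. Of the 41 entries, 11 passed the filter on low values in total RNA and 16 in polyA, most through their 2-cell libraries, so counts of those called support nothing. limma called 7 as risen in Dppa2 m+z+ and 8 in each of the other 4 stage comparisons, and none fell.

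Reads of these copies are hard to place. Of the 100-base windows of Obox3-ps5, 87.1% occurred in another Obox pseudogene and 2.65% in a coding Obox gene, and 12.9% were found nowhere else. For Obox3 8.89% of 100-base and 18.7% of 50-base windows occurred in a pseudogene. All windows of Obox4-ps35 and Obox3-ps7 were found in no other gene's annotated transcripts at either length. The rest of the genome, the reverse strand and near matches were not searched. Whether their 2-cell levels share reads with another copy was therefore not tested.

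**Figure D5:**
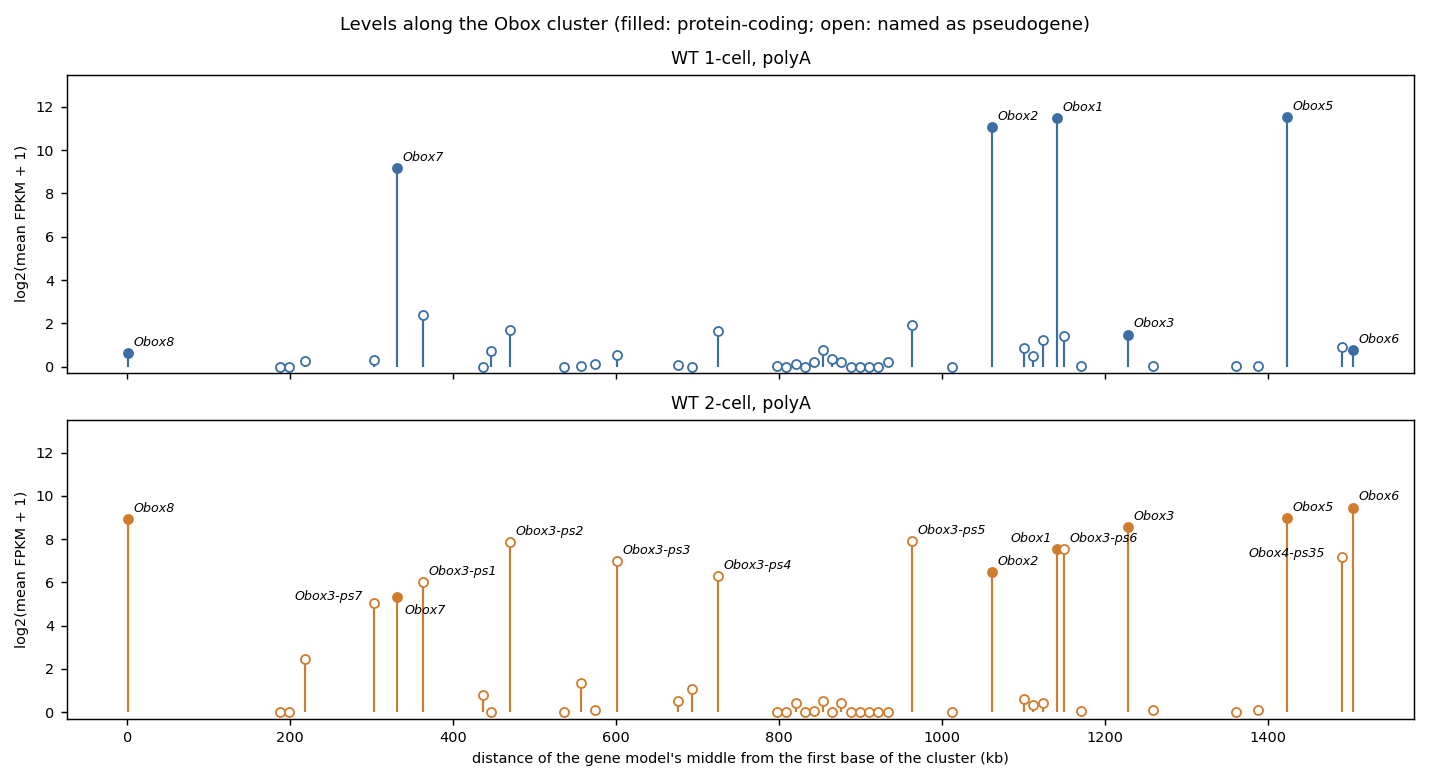
Mean level of each Obox entry on chromosome 7 in WT polyA 1-cell (top) and 2-cell (bottom) libraries, as log2(mean FPKM + 1), against the distance of its gene model's middle from the first base of the cluster in kb; filled points are coding genes and open points pseudogene-named entries. At the 1-cell stage Obox1, Obox2, Obox5 and Obox7 stand out; at the 2-cell stage Obox3, Obox6, Obox8 and the Obox3-ps entries between them are also high.

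Maternal loss of Dppa2 was first compared at the 1-cell stage, where limma called 0 of 7 coding members, none at an unadjusted p under 0.05, beside 0.0398% of all genes. The maternal RNAs overlapped between the genotypes, as the values above show. At the 2-cell stage limma again called 0 of 7 (0.186% of all genes), with 4 at an unadjusted p under 0.05 (Obox2, Obox3, Obox5 and Obox7). Of all 15068 tested genes, 1932 were under that unadjusted threshold. The group means of all 7 were higher in Dppa2 m-z+ than in m+z+, and for Obox1, Obox2, Obox3, Obox5 and Obox7 the libraries did not overlap. The share of all genes whose libraries did not overlap was not counted, here or in the comparisons below. Lack of overlap between groups of 2 or 3 libraries therefore does not set a member apart.

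The differences of m-z+ from m+z+ at the 2-cell stage were 1.21 ± 0.44 (SE) for Obox7 (limma, adjusted p = 0.265), 0.72 ± 0.33 for Obox5 (0.386) and 0.65 ± 0.26 for Obox3 (0.308). Those of Obox2 and Obox1 were 0.56 ± 0.24 (limma, adjusted p = 0.34) and 0.55 ± 0.30 (0.475). Obox8, at 0.29, and Obox6, at 0.26, overlapped between the genotypes (limma, adjusted p = 0.895 and 0.857). The median over the 7 genes was 0.56 and that over all genes -0.0028. The summed oocyte and zygote markers were also higher in Dppa2 m-z+, at 409 and 438 FPKM against 351 and 369.6 in the controls, and their part in the result was not tested. No coding member differed in its stage change between Dppa2 m-z+ and m+z+ (limma, 0 called of 7, 1 at an unadjusted p under 0.05, 0% of all genes called). Of all genes, 1299 were under the unadjusted threshold in that comparison.

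Maternal loss of Dppa4 gave no call at either stage. limma called 0 of 7 coding members at the 1-cell stage (0.00664% of all genes) and 0 at the 2-cell stage (0%), with none at an unadjusted p under 0.05 in either. At the 2-cell stage the m-z+ values lay between those of the m+z+ replicates for Obox1, Obox5 and Obox7, because Dppa4 m+z+ replicate 2 was high in all of these. Without that library the sign of the difference turned for Obox1, Obox2, Obox5, Obox7, Obox6 and Obox8, so no direction is given for these. Obox3 was at 79.4 and 78.8 FPKM in m-z+ against 68.2 and 58.8 in m+z+, without overlap. Its difference of 0.32 did not pass, and it kept its sign with any library left out (0.21 to 0.42). The stage changes did not differ between Dppa4 m-z+ and m+z+ by the test (limma, 0 of 7 called, none at an unadjusted p under 0.05, 0.00664% of all genes). Differences between the arms in the effect of the maternal genotype were also tested, and limma called 0 of 7 at each stage (0.0199% of all genes at the 1-cell and 0.00664% at the 2-cell stage), with 0 and 2 at an unadjusted p under 0.05. Of all genes, 319 and 1094 were under that unadjusted threshold.

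The controls of the arms differed at the 2-cell stage in a pair of maternal members. Obox1 was lower in Dppa2 m+z+ than in Dppa4 m+z+ 2-cell embryos by -1.32 ± 0.30 (SE, adjusted p = 0.0217, limma) and Obox5 by -1.65 ± 0.33 (adjusted p = 0.0122). These were the calls among 7 coding members, beside 9.13% of all genes called (4.63% lower). With libraries scaled to a common FPKM sum, the share of calls higher in the Dppa2 controls went from 49.3% to 24.0%, the all-gene median shifted by -0.14, and both members stayed called and lower. Of 14 tested oocyte transcription factors and regulators, limma called 5 as lower in the same comparison (Nobox, Lhx8, Tbpl2, Rfpl4 and Tcl1) and 0 as higher. Of 32 tested other homeobox genes, a list that also holds Nobox and Lhx8, it called 5 as lower and 2 as higher. Of the genes activated at the 2-cell stage, Tmem92 and Klf17 were called lower and Spz1 and Dppa4 higher. Whether the calls of these lists hold with a library left out was not tested. Obox7 was 11.3 and 3.81 FPKM against 9.44 and 28.2, a difference of -1.18 that did not pass (limma, adjusted p = 0.107).

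Both calls were lost without 1 library. Dppa4 m+z+ 2-cell replicate 2 held 228 FPKM of Obox1 against 91.7 in replicate 1, 611 against 247 of Obox5, 28.2 against 9.44 of Obox7, and only 23.3 against 66.2 of Obox8. Without it limma called 0 members, with Obox1 at -0.66 (adjusted p = 0.124) and Obox5 at -1.0 (adjusted p = 0.0923). The Obox1 call was also lost without either Dppa2 m+z+ 2-cell library, at -1.38 without replicate 1 (limma, adjusted p = 0.0603) and -1.26 without replicate 2 (adjusted p = 0.066), and with no filter on low values (adjusted p = 0.0599). With only the compared groups fitted neither was called (limma, adjusted p = 0.321 for Obox1 and 0.28 for Obox5). Without replicate 1 it called 3, with Obox7 at -1.92 (adjusted p = 0.0106). Its summed oocyte and zygote markers were 760.4 FPKM against 508 in replicate 1, and in the B6/DBA controls they were 351 and 369.6. The part of these markers in the result was not tested, and background and other differences between the arms cannot be told apart.

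At the 1-cell stage the controls of the arms gave 0 calls of 7 (limma, 1.01% of all genes). At an unadjusted p under 0.05 there was 1 member, beside 1167 of all genes. That member was Obox2, at 531 and 729.6 FPKM in Dppa2 m+z+ against 392 and 380.4 in Dppa4 m+z+, a difference of 0.69 ± 0.24 (SE, adjusted p = 0.336). The stage change of the controls was set between the arms too, and limma called 0 of 7 (0.139% of all genes). At an unadjusted p under 0.05 were 2310 of all genes, among them Obox1, Obox2, Obox5 and Obox7. Their differences were -1.50, -0.99, -1.66 and -1.40 (limma, adjusted p = 0.138, 0.19, 0.137 and 0.301). Without Dppa4 m+z+ 2-cell replicate 1 these 4 were called.

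Zygotic loss on top of maternal loss was measured in single 2-cell embryos by polyA RNA. Between the libraries labelled Dppa2 m-z- and Dppa2 m-z+, limma called 0 of 7 coding members, none at an unadjusted p under 0.05, beside 0.0054% of all genes. Obox3 was at 690.4, 703 and 779 FPKM in the libraries labelled m-z- and 605, 404 and 203 in m-z+, without overlap, a difference of 0.97 ± 0.50 (SE, adjusted p = 0.698). It was 0.92 without the library labelled m-z- replicate 3 (limma, adjusted p = 0.762) and 0.55 without m-z+ replicate 3 (adjusted p = 0.993). The summed cumulus and granulosa markers were also higher in the libraries labelled m-z-, at 46.5, 49.9 and 46.7 FPKM against 20.5, 19.0 and 28.0 in m-z+, as was the blood marker sum in replicate 3, and their part in the result was not tested. Single embryos of a group varied widely: Obox5 was at 1695, 542 and 806 FPKM in Dppa2 m-z+ and at 499, 1759 and 1004 in the libraries labelled m-z-.

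Between Dppa4 m-z- and Dppa4 m-z+, limma called 0 of 7 coding members (0.0162% of all genes). Obox8 was the member among 1296 of all genes at an unadjusted p under 0.05. Obox8 was at 74.5, 295 and 278 FPKM in m-z- and 576, 317 and 329 in m-z+, a difference of -1.09 ± 0.52 (SE, adjusted p = 0.711) with no overlap. Obox6 was at 158, 446 and 621 FPKM against 866, 532 and 547, a difference of -0.84 (limma, adjusted p = 0.745). Obox3 was at 131, 476 and 666 FPKM against 964, 510.4 and 393, a difference of -0.74 (limma, adjusted p = 0.812).

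In all 3 zygotic members the lowest of all 2-cell polyA libraries was Dppa4 m-z- replicate 1. Its maternal members were not low: Obox1 was at 388 FPKM, the highest of the 2-cell polyA libraries, and Obox5 at 1351. The same library had the highest summed oocyte and zygote markers of the 2-cell polyA libraries, 1120 FPKM against 369 to 983 in the others, and 964 FPKM of late 2-cell markers, within the range of the others. The part of these markers in its Obox values was not tested. The effect of zygotic loss did not differ between the arms by the test (limma, 0 of 7 called, 0.0162% of all genes). At an unadjusted p under 0.05 there were 2 members, beside 1896 of all genes.

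Each mutant polyA group was also set against WT 2-cell embryos. These 4 comparisons share the same WT libraries, so their values are not independent. limma called 0 of 7 coding members in each, beside 0.113% of all genes for Dppa2 m-z+, 0.0973% for the libraries labelled Dppa2 m-z-, 0% for Dppa4 m-z+ and 0.0648% for Dppa4 m-z-. At an unadjusted p under 0.05 there were 1, 1, 2 and 4 members in the same order, beside 1435, 1149, 1230 and 1976 of all 18506 genes. The share of all genes whose libraries did not overlap was not counted for these comparisons either.

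Obox5 differed most from WT in the Dppa4 groups. Its values were 1877, 1932 and 1719 FPKM for Dppa4 m-z+, then 1351, 1329 and 2205 for Dppa4 m-z-, against 371 and 624 in WT. Both Dppa4 groups lay above WT without overlap, by 1.93 ± 0.47 (SE, adjusted p = 0.318, limma) and 1.71 ± 0.47 (adjusted p = 0.242). The Dppa2 groups overlapped WT, with differences of 0.91 for m-z+ (limma, adjusted p = 0.693) and 0.99 for the libraries labelled m-z- (adjusted p = 0.799).

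Of Obox7, Dppa4 m-z+ embryos held 69.4, 62.7 and 92.1 FPKM and Dppa4 m-z- embryos 68.3, 94.7 and 68.7, above the 44.6 and 32.5 of WT. These differences were 0.93 ± 0.40 (SE, adjusted p = 0.718, limma) and 0.98 ± 0.40 (adjusted p = 0.392). Obox1 was at 388, 369 and 347 FPKM in Dppa4 m-z- against 187 and 181 in WT, without overlap (0.99 ± 0.35, SE, adjusted p = 0.344, limma). It was also above WT without overlap in Dppa4 m-z+, at 321, 246 and 297 FPKM (0.64, adjusted p = 0.811, limma), and in the libraries labelled Dppa2 m-z-, at 244, 239 and 238 (0.38, adjusted p = 0.926). Obox2 was above WT without overlap in the same 3 groups, by 0.74 in Dppa4 m-z-, 0.83 in Dppa4 m-z+ and 0.71 in the libraries labelled Dppa2 m-z- (limma, adjusted p = 0.54, 0.758 and 0.847). The oocyte and zygote markers summed to 1120, 800.2 and 983 FPKM in Dppa4 m-z-, to 369, 705 and 771 in Dppa4 m-z+ and to 490.3 and 441 in WT, and their part in these differences was not tested.

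Of the zygotic members, Obox6 and Obox8 had lower values in some groups and Obox3 did not. Obox8 was at 537 and 438 FPKM in WT, and lower without overlap in Dppa4 m-z- (-1.40 ± 0.58, SE, adjusted p = 0.395, limma) and in Dppa2 m-z+, where it was at 209, 393 and 109 FPKM (-1.22 ± 0.58, adjusted p = 0.643). Obox6 was at 719.6 and 682 FPKM in WT and lower without overlap in Dppa4 m-z- (-0.99 ± 0.50, adjusted p = 0.504, limma). In the libraries labelled Dppa2 m-z- Obox6 and Obox8 overlapped WT, at 771, 707 and 445 FPKM and at 344, 469 and 239 FPKM. Obox3, at 319 and 431 FPKM in WT, was higher without overlap in the libraries labelled Dppa2 m-z- (690.4, 703 and 779 FPKM), by 0.96 ± 0.56 (SE, adjusted p = 0.847, limma). It overlapped WT in the other 3 groups, with differences of -0.01 in Dppa2 m-z+, 0.64 in Dppa4 m-z+ and -0.10 in Dppa4 m-z- (limma, adjusted p = 1, 0.919 and 0.989).

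Across the 14 2-cell polyA libraries the members fell into the same groups as between the stages, which is given as a description since libraries share groups and depth. Obox6 and Obox8 varied together most closely (r = 0.93 of log2(FPKM + 1)), and Obox3 followed Obox6 (0.71) and Obox8 (0.68). Pairs among Obox1, Obox2, Obox5 and Obox7 had r from 0.61 to 0.74. Between those groups r ran from -0.55 for Obox1 and Obox6 to 0.27 for Obox5 and Obox3.

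The genes most like each member were taken by Pearson correlation of log2(FPKM + 1) over the 16 total RNA libraries among 12493 genes. The libraries form a 1-cell and a 2-cell group, so any gene with a large stage difference scores high. The nearest were Birc3 (r = 0.995) and Ccdc14 for Obox1, Eed (0.991) and Fbxw20 for Obox2, Ppp3r1 (0.985) and Snx4 for Obox5, and Ndufa6 (0.984) and Commd3 for Obox7. For the zygotic members they were Rfpl4b (0.995) and Zfp599 for Obox3, Gabpa (0.998) and Dnajb9 for Obox6, and Gcsh (0.996) and Alppl2 for Obox8. Over the 16 polyA libraries the likeness held for Obox6 with Gabpa (0.99) and Obox3 with Rfpl4b (0.971), and was lower for Obox5 with Ppp3r1 (0.388) and Snx4 (0.13) and for Obox7 with Ndufa6 (0.39) and Commd3 (0.544).

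Other oocyte and embryo genes give the setting of the family. Of 16 oocyte transcription factors and regulators 14 were tested in total RNA, and in the Dppa2 m+z+ stage comparison 3 rose and 10 fell (limma), with a median of -1.95 against 0.06 over all genes. Rfpl4b, of the ret finger protein-like family, rose by 4.89 ± 0.21 (SE), Yy1, a zinc finger factor, rose by 3.51 ± 0.21, and Nobox, a homeobox factor of the oocyte, fell by 3.26 ± 0.20 on the log2 scale (limma, adjusted p of 6.34e-08 or less). In WT polyA 3 of 15 rose and 4 fell, with a median of -1.46 against 0.23 over all genes.

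Of 45 other homeobox genes 32 were tested in total RNA, and 10 rose and 11 fell in Dppa2 m+z+ (median -0.29). Crxos, a homeobox gene of early embryos, rose to a mean of 82.3 FPKM from libraries listed at 0 (limma, adjusted p = 2.04e-06), and Adnp, a zinc finger and homeobox protein of chromatin, rose by 4.51 ± 0.74 (SE, adjusted p = 0.000194, limma). Among 38 tested genes known for activation at the 2-cell stage, 30 rose and 4 fell (median 2.89). Klf5, a Krüppel-like factor, rose by 5.51 ± 0.31 (SE), Tdpoz1 by 5.22 ± 0.27 and Usp17lb, a deubiquitinase gene, by 5.19 ± 0.27 (limma, adjusted p of 3.77e-08 or less). In the 4 m-z+ against m+z+ comparisons limma called 0 genes of these 3 lists, with 0 to 5 genes of a list at an unadjusted p under 0.05. Of all genes, 192 to 1932 were under that unadjusted threshold. In Dppa4 m-z- against m-z+ it called 1, the mutated Dppa4 itself, which is on the 2-cell list and was listed near 0 (adjusted p = 3e-10).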

How the data were processed

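RNA-seq of mouse 1-cell and 2-cell embryos was deposited as 1 table of FPKM for 16 total RNA libraries and 1 for 16 polyA libraries. Per the labels' protocols, embryo lysates went into a SMARTer stranded kit (total RNA) or into SMARTer Ultra Low Input cDNA and Nextera XT libraries, without strand (polyA). The authors' FPKM were made with HISAT2 2.1.0, StringTie 1.3.3b and mm10, per the submitters' processing notes. The annotation, filters, strand setting and treatment of reads that fit several genes are not given in the sources used, and without counts the depth behind a value is unknown. FPKM are shares of a library, so a change in a few abundant RNAs moves all others.

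The labels gave the groups. log2(FPKM + 1) was fitted with limma 3.58.1 (R 4.3.3, statmod 1.5.0), all 16 libraries of a table together, with 1 mean per group and trended, robust empirical Bayes. Tests were two-sided with Benjamini-Hochberg adjustment over all genes at 1 FPKM or more in at least 2 libraries, called at 0.05. There were 19 planned comparisons, and 4 differences between the arms were added after seeing the data. The fit was tested on simulated data. Members, gene lists and comparisons were chosen with earlier results of these data known. All Obox entries were named; from each list, the 3 genes with the largest change past the threshold in Dppa2 m+z+ between the stages, and for each member the 2 genes most correlated with it, leaving out predicted models. Genes given as called between the arms were named after their values were seen. Identity of GENCODE M21 coding sequences (98.0% of the tables' gene identifiers are in M21) stands in for the planned protein alignment, which was not run here. Alternatives were other pseudocounts, filters, scalings, fits, a replicate block and leaving out each library.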

Additional observations from a re-analysis of the deposited data

How the results depend on the processing

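Over 1426 checks of members and counts under the alternatives, 1395 were scored as kept. Of these, 785 were member changes that kept their direction and side of the threshold. The other 610 were counts of called entries that stayed equal or close to their value, so a small move of a count was scored as kept. They include counts of pseudogene-named entries and many counts that were 0 and stayed 0. A member change that had not passed was scored as kept when it again did not pass with the same sign. The total is therefore not a measure of how robust the calls are. Among the member changes in these checks, the sign turned in 1. Obox5 between the stages in Dppa4 m+z+ was 0.17 without Dppa4 m+z+ 2-cell replicate 1, and -1.13 without replicate 2. The changes of Obox2 and Obox3 against WT were not among these checks. Nor were those of Obox1 against WT in Dppa4 m-z+ and in the libraries labelled Dppa2 m-z-, so whether their signs hold is not given. In the 2-cell comparison of Dppa4 m-z+ with m+z+, the sign turned in 6 of 7 members without Dppa4 m+z+ replicate 2, to values from -0.39 (Obox8) to 0.54 (Obox7). No direction is given for those 6. In the 2-cell comparison of the Dppa2-arm and Dppa4-arm controls, where 2 coding members were called, 1 was called with no filter on low values and 0 with only the compared groups fitted, and 0 to 3 when a library was left out. In the difference of the controls' stage changes between the arms, 0 to 4 were called when a library was left out, and in the stage comparison of Dppa4 m+z+ 6 to 7. The other counts of called coding members kept their value when any library was left out. The causes were not tested. With the replicate number as a block, the counts of coding members called were again 7 in both Dppa2 stage comparisons and in WT, 6 in both Dppa4 ones, 2 between the 2-cell controls and 0 elsewhere. Deviations of same-numbered libraries correlated at -0.06 to 0.14 (total RNA) and -0.18 to 0.08 (polyA), so the numbers are not taken to pair the samples. Groups of 2 or 3 libraries, FPKM of unknown depth and near-identical copies limit the precision.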
